A study of Rattus norvegicus with 12 samples.

Results

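Genes of cholesterol and fatty acid synthesis were followed in ventricular cardiomyocytes of newborn rats before and during mechanical stretch. The genes were chosen by name, with probes taken where the array's own gene name was on a list of 32 names for 31 genes (Msmo1 appears there also under its older name Sc4mol). Of these, 29 genes were found among the 14376 genes tested, 23 of sterol metabolism and 6 of fatty acid synthesis, and all of their 33 probes were well above background on all 12 arrays. Sc5d and Acat2 were present only under older symbols and are described apart, outside every count.

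There were 4 groups of 3 cultures, each culture read on 1 array. Control cells were unstretched on silicone plates coated with collagen, and the other groups received pulsatile biaxial stretch at 20% elongation for 2, 6 or 24 h. All cells were plated in medium with 10% foetal calf serum, which carries lipoproteins, were kept in it for 24 h and were washed before stretch; the serum in the medium during stretch is not stated. All 3 stretch times share the same 3 controls, for which the labels give no culture time, so stretch and time in culture cannot be told apart. The cultures are labelled only as replicates, without saying whether they came from separate isolations, so p-values refer to the spread between these cultures. The 75th percentile of array intensity ranged from 1142 to 1671, and the share of spots read well above background from 64.7% to 70.6%. The number of arrays, 3 per group, limits the precision of every value. Arrays lay on 2 slides. Slide 1 held the controls, the 2 h arrays and 6 h replicates 1 and 2, and slide 2 held 6 h replicate 3 and all 24 h arrays. Of 8 cardiomyocyte markers, all were well above background on all arrays.

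Cholesterol is made from acetyl-CoA through mevalonate, isoprenoid phosphates, squalene and a series of sterol ring reactions, each with its own enzyme. The SREBP proteins, encoded by Srebf1 and Srebf2, are transcription factors held in the endoplasmic reticulum by the sterol sensor Scap and the Insig proteins while sterol is abundant. When sterol is low they move to the Golgi, are cut, and activate genes of sterol synthesis and lipogenesis together with the factors NF-Y and Sp1. Loaded cells instead export sterol through Abca1, whose gene responds to oxysterols through the liver X receptors. In heart muscle the products serve membranes, protein prenylation and signalling lipids.

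Promoters of members that moved together are shown, because NF-Y binds CCAAT boxes beside SREBP sites in many sterol genes. The windows are the 250 bases before the annotated start in RefSeq's rat assembly GRCr8, 5′ to 3′ on the gene's strand. Capitals mark CCAAT or its reverse complement ATTGG. The Idi1 window is chr17:66547525-66547774 on the minus strand, with 2 boxes. The Hmgcs1 window is chr2:53382054-53382303 on the plus strand, also with 2. The Hsd17b7 window is chr13:84722755-84723004 on the minus strand, with 3 boxes. The Msmo1 window is chr16:29746863-29747112 on the plus strand, also with 3. Abca1, the member with the largest change and the opposite direction at 24 h, has no such box in chr5:72596474-72596723 on the minus strand. The windows of Cyp51, Dhcr7, Scap and Scd1 have none either. Of these, Cyp51 (log2 change 0.35), Dhcr7 (0.41) and Scd1 (0.72) were higher at 24 h than at 6 h, and Scap (0.07) was not called.
Idi1: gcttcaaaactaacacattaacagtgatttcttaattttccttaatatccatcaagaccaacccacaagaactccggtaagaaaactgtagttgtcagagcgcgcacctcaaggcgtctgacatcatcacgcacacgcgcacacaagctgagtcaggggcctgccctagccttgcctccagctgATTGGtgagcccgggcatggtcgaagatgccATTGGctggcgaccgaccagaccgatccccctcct
Hmgcs1: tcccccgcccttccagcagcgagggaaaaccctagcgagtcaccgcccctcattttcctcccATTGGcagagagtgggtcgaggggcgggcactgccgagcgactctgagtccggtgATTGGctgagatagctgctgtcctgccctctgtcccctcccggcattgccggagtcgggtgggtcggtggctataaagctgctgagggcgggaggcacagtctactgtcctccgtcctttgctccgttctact
Hsd17b7: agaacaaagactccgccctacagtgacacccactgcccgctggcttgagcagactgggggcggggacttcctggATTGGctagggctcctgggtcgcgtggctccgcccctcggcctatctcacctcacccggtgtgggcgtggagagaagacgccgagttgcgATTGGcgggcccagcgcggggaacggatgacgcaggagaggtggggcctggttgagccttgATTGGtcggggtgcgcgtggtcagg
Msmo1: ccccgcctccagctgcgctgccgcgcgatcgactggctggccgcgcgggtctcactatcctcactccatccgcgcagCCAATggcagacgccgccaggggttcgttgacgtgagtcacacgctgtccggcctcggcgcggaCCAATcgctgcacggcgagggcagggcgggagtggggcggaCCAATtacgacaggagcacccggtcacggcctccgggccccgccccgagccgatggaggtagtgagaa
Abca1: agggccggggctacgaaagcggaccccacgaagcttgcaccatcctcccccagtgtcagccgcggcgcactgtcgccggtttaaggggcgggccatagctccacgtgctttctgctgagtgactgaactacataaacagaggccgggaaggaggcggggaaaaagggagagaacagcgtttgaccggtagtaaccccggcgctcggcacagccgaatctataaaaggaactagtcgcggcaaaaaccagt

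Of the 29 members, 22 had a window in the RefSeq table, and CCAAT on either strand occurred in 17 of them (77.3%). Over all 33469 windows of this length the share was 34%, and over the 10467 windows of genes tested here it was 35.4%. Of 13 sterol synthesis enzymes with a window, 11 held the box, and Cyp51 and Dhcr7 did not. The Sp1 box GGGCGG, searched on both strands, was in 17 of 22 members (77.3%), against 30.5% of all windows and 57% of windows of tested genes. The sterol element, searched on both strands as TCACNCCAC, matched 0 member windows, against 0.974% of all windows. These are matches of letters, not binding sites. No window was found for Acaca, Elovl6, Fasn, Fdft1, Pmvk, Sqle or Stard4.

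Part of the sterol genes fell early in stretch and part rose late, by modest amounts, and the lipogenic genes were mixed. At 2 h against control, 9 of 29 members fell and 0 rose, where 6.1% of all genes were called lower, 3.1% higher and 9.2% in either direction. At 6 h, 13 fell and 0 rose, against 11.7% of all genes called lower, 5.06% higher and 16.8% in either direction. At 24 h the direction turned: 13 members rose and 1, Abca1, fell, against 16.2% of all genes called higher, 31.7% lower and 47.9% in either direction. Here and below, a gene was called, and is said to rise or fall, at a Benjamini-Hochberg adjusted p below 0.05 over all genes in limma. In these mixed cultures, fewer cells of a type and less RNA per cell cannot be told apart.

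The 23 sterol genes had median log2 changes of -0.18 at 2 h, -0.18 at 6 h and 0.12 at 24 h. The 6 lipogenic genes had medians of -0.17, -0.11 and 0.12 at the same times. Over all genes tested the medians were -0.01, -0.05 and -0.08. Of the 29 members, 24 were called in at least 1 of the 3 comparisons with control, and Acaca, Fdft1, Insig2, Scap and Srebf2 in none. A moderated F test for any difference among the 4 groups called 25 of 29 members, against 52.8% of all genes.

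**Figure D1:**
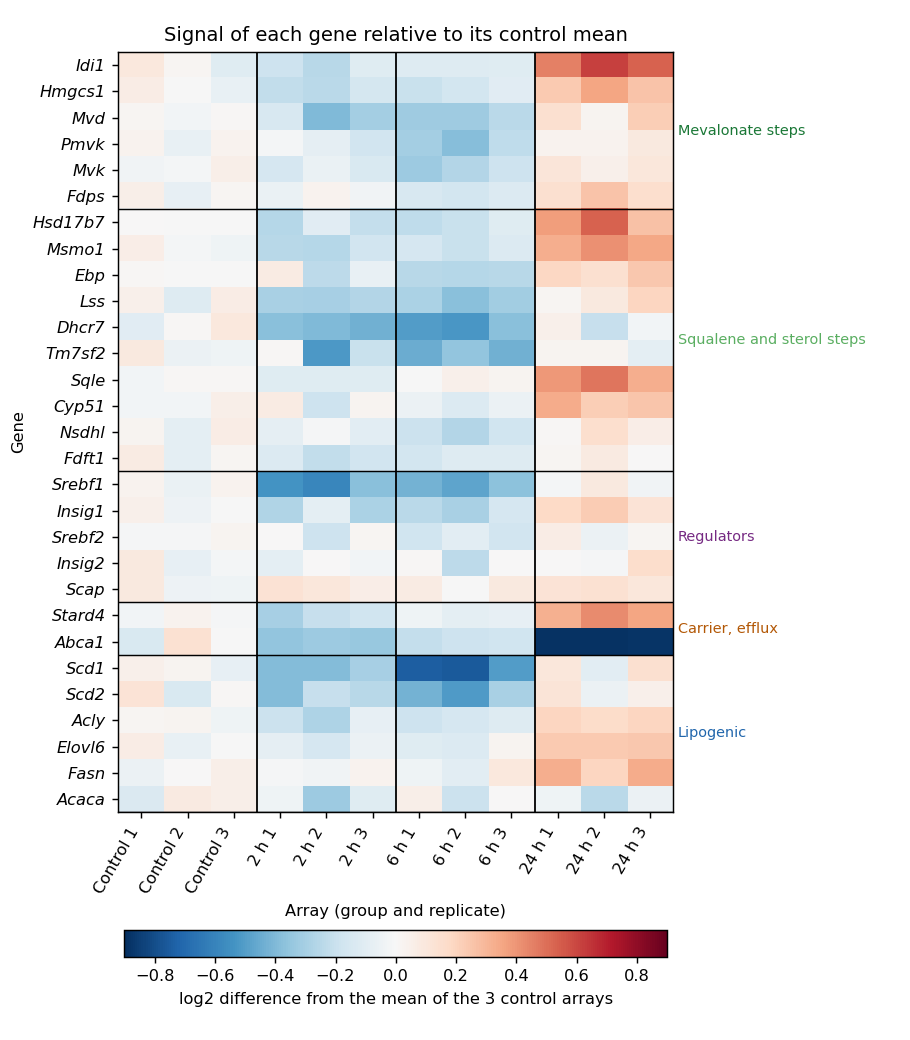
Each cell is the scaled log2 signal of 1 gene (rows, grouped by role) on 1 array (columns) minus the mean of the 3 control arrays. Most genes are blue at 2 and 6 h and red at 24 h. Abca1 is the darkest blue at 24 h, near -0.89 on all 3 arrays.

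Levels below are log2 intensities relative to the 75th percentile of the same array, so 0 is that percentile. They are given as replicates 1, 2 and 3, and compare arrays for 1 probe, not probes with each other. Errors on changes are standard errors from limma, with n = 3 per group. Probe positions are on rat build rn4, as the array files give them, and exon or UTR annotation on that build was not used here.

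Among the mevalonate and isoprenoid steps, all 6 measured enzymes were higher at 24 h than at 6 h, with a median change of 0.39. Over all genes, 9.57% were called higher in that comparison. Idi1, which isomerises isopentenyl diphosphate, rose most. Its probe at chr17:72557223-72557282 read 2.85, 2.77 and 2.65 in controls, and 2.57, 2.51 and 2.64 at 2 h. It read 2.64 on each of the 6 h arrays and 3.20, 3.37 and 3.28 at 24 h. Every 24 h array was above every other array, and the 6 h arrays lay just below the lowest control. The change at 24 h was 0.53 ± 0.06 (SE, 1.45-fold, adjusted p = 7.68e-05), and the changes of -0.18 at 2 h and -0.11 at 6 h were not called.

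Hmgcs1, the synthase that makes HMG-CoA, fell at 2 h by 0.21 ± 0.05 on the log2 scale (adjusted p = 0.0347) and rose at 24 h by 0.28 ± 0.05 (adjusted p = 0.0014). Its change of -0.16 at 6 h was not called. Mvd, which decarboxylates mevalonate diphosphate, fell at 2 h (-0.28 ± 0.07, adjusted p = 0.0309) and at 6 h (-0.30 ± 0.07, adjusted p = 0.0163). The kinases Mvk and Pmvk fell at 6 h, by 0.26 and 0.31 (adjusted p = 0.00717 and 0.00559). None of these 3 was called at 24 h against control, with changes of 0.13 for Mvd, 0.09 for Mvk and 0.05 for Pmvk. Fdps, farnesyl diphosphate synthase, rose at 24 h by 0.18 ± 0.05 (adjusted p = 0.0124). Its other probe gave 0.17 at 24 h.

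Of the 10 measured squalene and sterol ring enzymes, 3 fell at 2 h, 6 fell at 6 h and 5 rose at 24 h. The shares of all genes called in those directions were 6.1%, 11.7% and 16.2%. Sqle, squalene epoxidase, oxidises squalene in a rate-controlling step. On the probe at chr7:96111693-96111752 the controls read 3.05, 3.08 and 3.08, and the 2 h arrays 2.96, 2.96 and 2.97. The 6 h arrays read 3.07, 3.11 and 3.1, and the 24 h arrays 3.46, 3.55 and 3.4. Only the 24 h arrays stood clear of the controls by more than a small step, and the change was 0.40 ± 0.05 (1.32-fold, adjusted p = 6.13e-05).

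Msmo1, the C4-methylsterol oxidase, was read at chr16:26716174-26716233. Controls were at 5.42, 5.34 and 5.32, 2 h arrays at 5.11, 5.10 and 5.19, 6 h arrays at 5.21, 5.16 and 5.23, and 24 h arrays at 5.69, 5.78 and 5.71. The early arrays all lay below the controls and the 24 h arrays all above them. Msmo1 fell at 2 h by 0.22 ± 0.05 (adjusted p = 0.0157) and at 6 h by 0.16 ± 0.05 (adjusted p = 0.041), and rose at 24 h by 0.36 ± 0.05 (adjusted p = 0.000131).

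Hsd17b7, the 3-ketosteroid reductase of C4 demethylation, has its probe at chr13:85776080-85776139. It read -0.79, -0.80 and -0.80 in controls and -1.05, -0.90 and -1.01 at 2 h. At 6 h it read -1.03, -1.0 and -0.91, and at 24 h -0.42, -0.27 and -0.53. The early arrays lay below the controls without passing the test, and the 24 h arrays above them. The change at 24 h was 0.39 ± 0.07 (adjusted p = 0.000977).

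Lss, lanosterol synthase, closes the first sterol ring system. The probe at chr20:12507646-12507705 gave 0.92, 0.77 and 0.95 in controls and 0.58, 0.58 and 0.61 at 2 h. It gave 0.60, 0.50 and 0.57 at 6 h and 0.89, 0.96 and 1.07 at 24 h. The 24 h arrays overlapped the controls, and all 6 early arrays were lower. Lss fell at 2 h by 0.29 ± 0.06 (adjusted p = 0.0173) and at 6 h by 0.32 ± 0.06 (adjusted p = 0.00623).

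Dhcr7, the reductase that makes cholesterol from 7-dehydrocholesterol, had a similar course. At chr1:204258565-204258624 it read 0.68, 0.79 and 0.87 in controls and 0.40, 0.39 and 0.35 at 2 h. It read 0.28, 0.26 and 0.40 at 6 h and 0.82, 0.57 and 0.76 at 24 h. It fell by 0.40 ± 0.07 at 2 h (adjusted p = 0.00933) and by 0.47 ± 0.07 at 6 h (1.38-fold lower, adjusted p = 0.00285), and its 24 h arrays overlapped the controls.

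Tm7sf2, a sterol C14 reductase, was uneven at 2 h. At chr1:208700771-208700830 the controls read 0.52, 0.37 and 0.39, and the 2 h arrays 0.44, -0.09 and 0.22. The 6 h arrays read -0.02, 0.07 and -0.01, and the 24 h arrays 0.45, 0.45 and 0.33. Only the 6 h group was called, at -0.41 ± 0.11 (adjusted p = 0.0274).

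Among the remaining ring enzymes, Cyp51, lanosterol 14-demethylase, rose at 24 h (0.27 ± 0.07, adjusted p = 0.0072). Ebp, the sterol isomerase, fell at 6 h (-0.25 ± 0.07, adjusted p = 0.0282) and rose at 24 h (0.19 ± 0.07, adjusted p = 0.0383). Nsdhl, the decarboxylating dehydrogenase of C4 demethylation, fell at 6 h (-0.21 ± 0.06, adjusted p = 0.0274). Fdft1, squalene synthase, had changes of -0.17, -0.13 and 0.04 at the 3 times, none called. Sc5d, the sterol desaturase matched by accession, rose at 24 h by 0.24 (adjusted p = 0.00215; with slide as a block 0.25, adjusted p = 0.1). Its 2 h change of -0.18 (adjusted p = 0.039) lost the call without any 1 of 10 arrays (adjusted p up to 0.103), the exceptions being control replicate 2 and 24 h replicate 2.

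**Figure D2:**
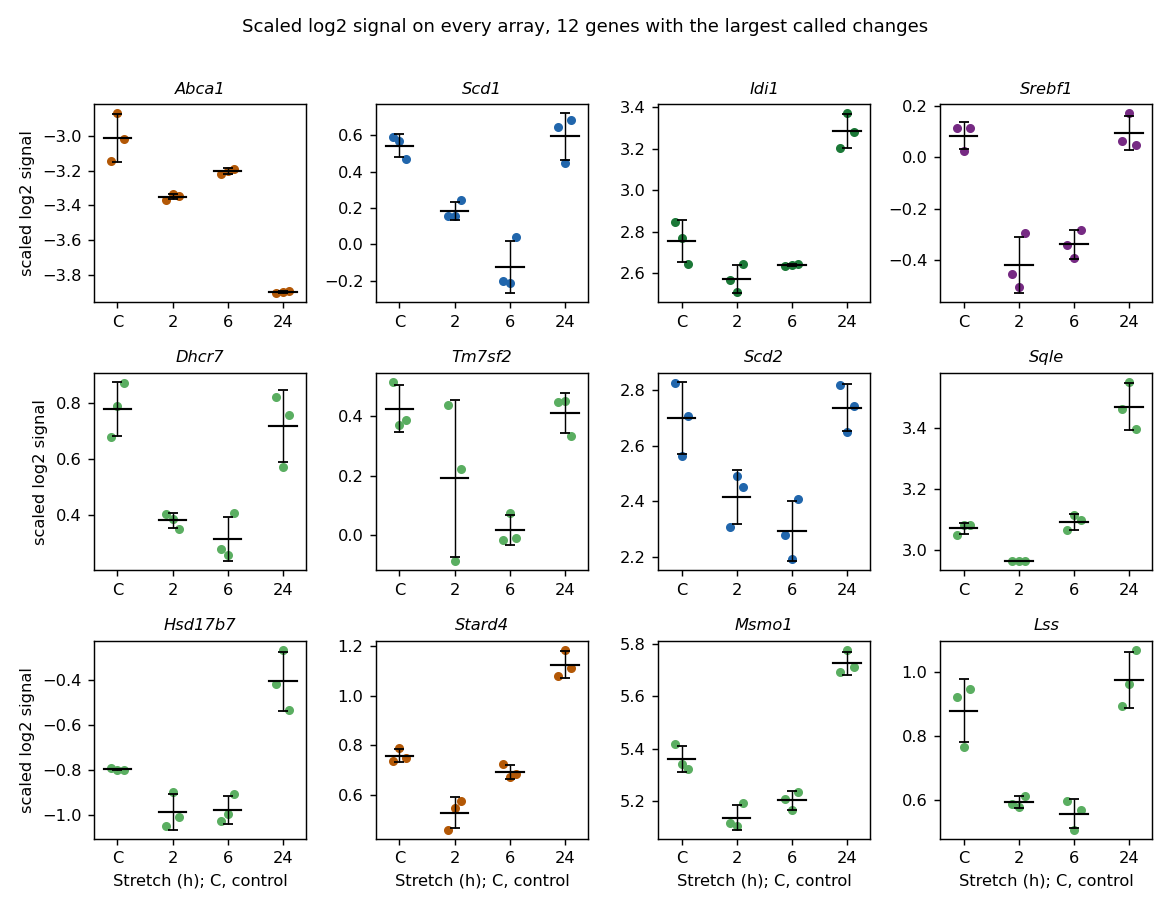
Points are single arrays, horizontal bars group means and whiskers SD (n = 3), on the scaled log2 axis, which differs between panels and does not start at 0. The 24 h arrays of Idi1, Sqle, Hsd17b7, Stard4 and Msmo1 lie above all controls, those of Abca1 below, and those of Scd1, Srebf1, Dhcr7, Tm7sf2, Scd2 and Lss overlap the controls.

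Of the 5 regulators, 1 fell at 2 h, 2 fell at 6 h and 1 rose at 24 h. Over all genes, 6.1%, 11.7% and 16.2% were called in those directions. Srebf1, whose protein drives lipogenic genes, changed most. Its probe at chr10:46462235-46462294 read 0.12, 0.02 and 0.11 in controls and -0.45, -0.51 and -0.30 at 2 h. It read -0.34, -0.39 and -0.28 at 6 h and 0.06, 0.17 and 0.05 at 24 h. The early groups were separate from the controls and the 24 h arrays overlapped them. Srebf1 fell by 0.50 ± 0.06 at 2 h (1.42-fold lower, adjusted p = 0.00239) and by 0.42 ± 0.06 at 6 h (adjusted p = 0.00215), with 0.01 at 24 h.

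Srebf2, which mainly drives cholesterol genes, was called at no time, with changes of -0.06, -0.15 and 0.01. Insig1, the retention protein whose gene is itself an SREBP target, fell at 6 h (-0.23 ± 0.06, adjusted p = 0.033) and rose at 24 h (0.18 ± 0.06, adjusted p = 0.0394). Its relative Insig2 and the sensor Scap were called at no time, with changes from -0.07 to 0.05 for Insig2 and from 0.05 to 0.12 for Scap. A further probe for Insig2 gave -0.21 at 24 h, opposite in sign to the 0.05 of the probe used.

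Stard4, a soluble carrier that moves sterol between membranes, fell early and rose late. On chr18:25638729-25638788 controls read 0.73, 0.79 and 0.75, and 2 h arrays 0.46, 0.55 and 0.58. The 6 h arrays read 0.72, 0.67 and 0.68, and the 24 h arrays 1.08, 1.18 and 1.11. The 2 h and 6 h arrays lay below the controls, the latter closely, and the 24 h arrays above. It fell at 2 h by 0.23 ± 0.05 (adjusted p = 0.0148) and rose at 24 h by 0.37 ± 0.05 (adjusted p = 0.000128). Its other probe gave -0.10 at 2 h and 0.46 at 24 h, and with the mean of both probes the 2 h fall was not called (adjusted p = 0.054).

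Abca1, the transporter that loads cellular cholesterol onto apolipoprotein A-I, was the only member that fell at 24 h. At chr5:70493613-70493672 controls read -3.14, -2.87 and -3.02, and 2 h arrays -3.37, -3.34 and -3.35. The 6 h arrays read -3.22, -3.20 and -3.19, and the 24 h arrays -3.90, -3.90 and -3.89. All stretched arrays were below all controls, the 24 h arrays by far the most. Abca1 fell at 2 h by 0.34 ± 0.06 (adjusted p = 0.00814) and at 24 h by 0.89 ± 0.06 (1.85-fold lower, adjusted p = 2.15e-06). With only the groups compared in the fit, the 2 h fall was not called (adjusted p = 0.0667). Its change of -0.19 at 6 h was not called (adjusted p = 0.051). Against 6 h, the 24 h arrays were lower by 0.70 ± 0.06 on the log2 scale (adjusted p = 2.56e-05).

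Macrophages express Abca1, and their markers fell with it at 24 h but not at 2 h. All 7 macrophage and leukocyte markers fell at 24 h, with a median log2 change of -1.35, where 31.7% of all genes were called lower. Their summed level went from 2.70 to 2.80 in controls to 1.06 to 1.1 at 24 h (in units of the 75th percentile). At 2 h, where Abca1 also fell, that sum was higher than in controls, at 3.03 to 3.31, and the marker Adgre1 rose (0.59, adjusted p = 0.00331). At 6 h the sum was 2.36 to 2.62. The part of these cells in the Abca1 values was not tested.

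Acat2, which supplies acetoacetyl-CoA and was matched by accession, fell at 6 h by 0.22 (adjusted p = 0.00559) and rose at 24 h by 0.22 (adjusted p = 0.00153; with slide as a block 0.17, adjusted p = 0.17) on the probe used. The other Acat2 probe had the opposite sign at 24 h, -0.66, so its direction is unsettled.

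Of the 6 lipogenic enzymes, 1 fell at 2 h, 2 fell at 6 h and 3 rose at 24 h. The same calls covered 6.1%, 11.7% and 16.2% of all genes. The desaturases, which introduce the double bond of oleate and palmitoleate, fell early and were at control level late. Scd1 at chr1:249458860-249458919 read 0.59, 0.57 and 0.47 in controls and 0.16, 0.15 and 0.24 at 2 h. It read -0.20, -0.21 and 0.04 at 6 h and 0.64, 0.45 and 0.69 at 24 h. The 6 h arrays were the lowest, and the 24 h arrays overlapped the controls. Scd1 fell by 0.36 ± 0.08 at 2 h (adjusted p = 0.0221) and by 0.67 ± 0.08 at 6 h (1.59-fold lower, adjusted p = 0.000982), with 0.05 at 24 h.

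Scd2, read at chr1:249370837-249370896, gave 2.82, 2.56 and 2.71 in controls and 2.31, 2.49 and 2.45 at 2 h. It gave 2.28, 2.19 and 2.41 at 6 h and 2.82, 2.65 and 2.74 at 24 h. It fell at 6 h by 0.41 ± 0.08 (adjusted p = 0.00905), and its change of -0.28 at 2 h was not called. The array files name these probes Scd1 and Scd, and their accessions now carry the RefSeq symbols Scd and Scd2.

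The other 4 lipogenic enzymes were not called at 2 h or 6 h. Fasn, fatty acid synthase, rose at 24 h by 0.28 ± 0.06 (adjusted p = 0.00326), with changes of -0.0043 at 2 h and -0.01 at 6 h. Its arrays read 2.09 to 2.19 in controls and 2.33 to 2.48 at 24 h. Elovl6, which elongates palmitate, rose at 24 h by 0.24 ± 0.05 (adjusted p = 0.00438). Its other probe gave -0.27 at 6 h and 0.12 at 24 h, against -0.07 and 0.24 on the probe used. Acly, which makes cytosolic acetyl-CoA from citrate, rose at 24 h by 0.19 ± 0.05 (adjusted p = 0.0148). Acly arrays at 2 h and 6 h all lay below the controls, with changes of -0.18 and -0.15 (adjusted p = 0.0601 and 0.0779). Acaca, acetyl-CoA carboxylase, was called at no time, with changes of -0.16, -0.05 and -0.11.

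**Figure D3:**
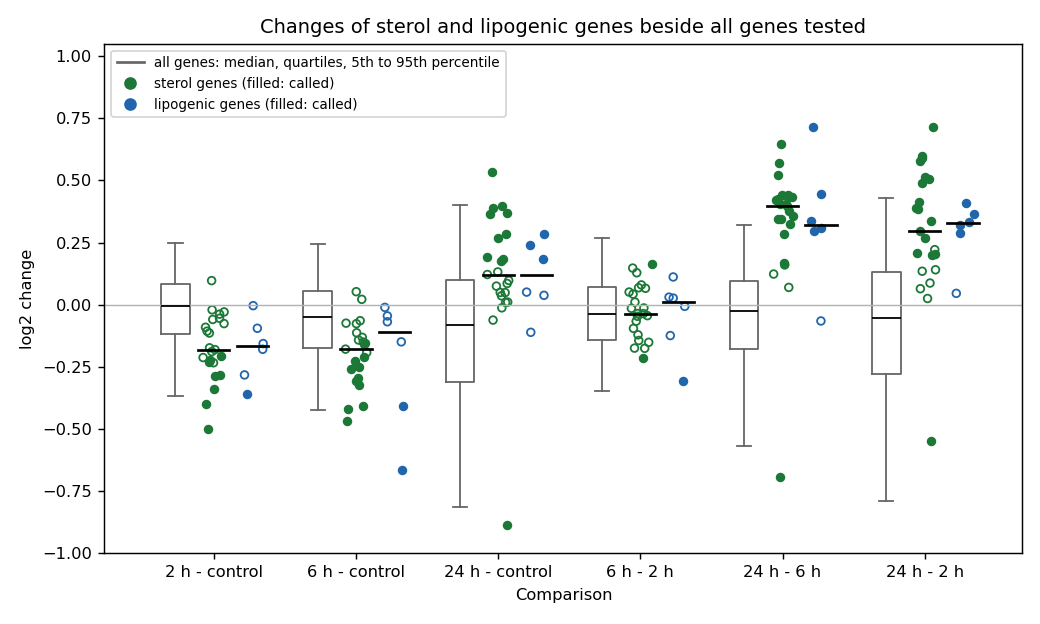
For each comparison the box gives the median, quartiles and 5th to 95th percentiles of log2 change over all 14376 genes, and points are the 23 sterol genes (green) and 6 lipogenic genes (blue), filled where called, with black bars at their medians. In the 24 h against 6 h comparison the sterol median of 0.40 lies above the 95th percentile of all genes, 0.32.

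The clearest contrast was between the stretch times themselves. The estimated differences do not use the controls, but their errors and p-values come from a fit that includes the control arrays. At 24 h against 6 h, 24 of 29 members were higher and 1, Abca1, lower, where 9.57% of all genes were called higher, 15.5% lower and 25% in either direction. All 16 measured sterol synthesis enzymes were called higher at 24 h than at 6 h, by a median of 0.40, with the median over all genes at -0.02. Scd1 was higher by 0.72 ± 0.08 (1.64-fold, adjusted p = 0.000152), Idi1 by 0.65 ± 0.06 (1.56-fold, adjusted p = 5.18e-05), Hsd17b7 by 0.57 ± 0.07 (adjusted p = 0.000221) and Msmo1 by 0.52 ± 0.05 (adjusted p = 3.08e-05). Srebf1 was higher by 0.43 ± 0.06 (adjusted p = 0.000752) and Insig1 by 0.41 ± 0.06 (adjusted p = 0.00115). Of the lipogenic genes 5 of 6 were higher. Acaca, Insig2, Scap and Srebf2 were not called, with changes of -0.07, 0.12, 0.07 and 0.16.

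At 24 h against 2 h, 21 members were higher and 1, Abca1, lower, where 18% of all genes were called higher, 30.2% lower and 48.2% in either direction. Stard4 (0.60, adjusted p = 5.57e-06) and Msmo1 (0.59, adjusted p = 5.92e-06) had the smallest p, and Idi1 the largest change (0.71, adjusted p = 1.2e-05). Between 2 h and 6 h little was called: Scd1 (-0.31 ± 0.08, adjusted p = 0.039) and Pmvk (-0.22 ± 0.06, adjusted p = 0.0382) were lower at 6 h and Stard4 (0.17 ± 0.05, adjusted p = 0.0494) higher, where 6.8% of all genes were called lower, 3.68% higher and 10.5% in either direction. These 3 calls rested on single arrays. Pmvk was still called only without control replicate 1 or 2, 2 h replicate 3 or 24 h replicate 2, and Scd1 only without control replicate 1, 6 h replicate 3 or 24 h replicate 2 or 3. Stard4 was still called only without 24 h replicate 2, and the highest adjusted p were 0.122, 0.131 and 0.159.

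**Figure D4:**
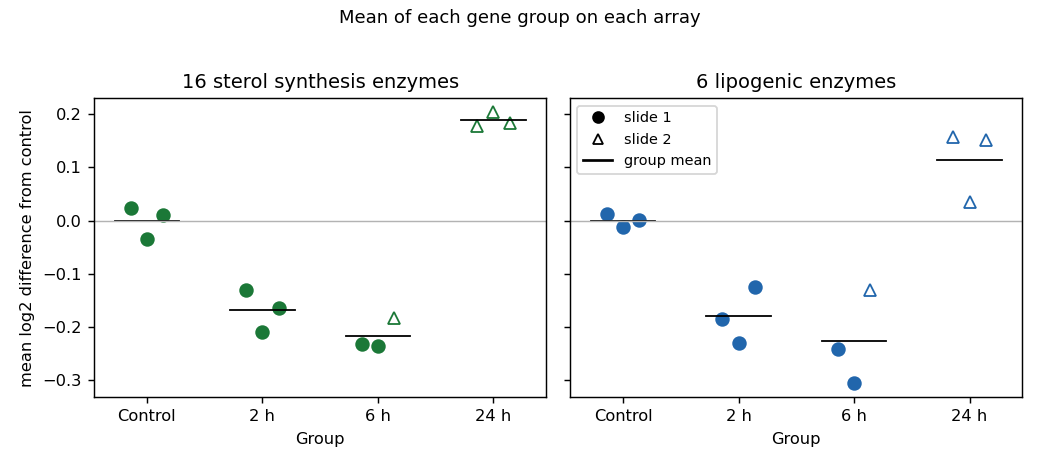
Points are arrays, by slide, and give the mean log2 difference from control over 16 sterol synthesis enzymes (left) and 6 lipogenic enzymes (right), with bars at group means. The 6 h array on slide 2 reads -0.18 and -0.13, beside 0.18 to 0.20 and 0.03 to 0.16 for the 24 h arrays of that slide.

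Slide moves with the 24 h group, and the array that joins the slides is 6 h replicate 3. Averaged over the 16 sterol synthesis enzymes, that array was 0.18 below the control mean on the log2 scale, the other 6 h arrays were 0.23 and 0.24 below it, and the 24 h arrays on the same slide were 0.18, 0.20 and 0.18 above it. With slide as a block, 24 h against 6 h kept 13 members higher, 9 of them sterol synthesis enzymes, with a median of 0.37 for the 16 enzymes. Over all genes, 307 of 14376 were then called higher. Idi1 (0.64), Scd1 (0.55), Hsd17b7, Msmo1 and Srebf1 were among the 13, and Insig1 was not (adjusted p = 0.0519). These estimates rest on slide 2, the only slide with both times, where 1 array at 6 h stands against 3 at 24 h. On that slide alone the 6 h arm has no spread of its own, so the estimates, with Abca1 at -0.71 and Idi1 at 0.64, are given with no test.

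Against control with slide as a block, 4 members kept a rise at 24 h, where 497 of 14376 genes were called higher. The 4 members were Idi1 (0.52, adjusted p = 0.0186), Sqle (0.39, adjusted p = 0.0172), Stard4 (0.38, adjusted p = 0.0221) and Msmo1 (0.32, adjusted p = 0.0398). Abca1 kept its fall (-0.91, adjusted p = 0.0014). The rises of Hsd17b7 (0.29, adjusted p = 0.154), Hmgcs1 (0.21, adjusted p = 0.185), Cyp51 (0.23, adjusted p = 0.248), Fasn (0.12, adjusted p = 0.447), Elovl6 (0.09, adjusted p = 0.51), Acly (0.13, adjusted p = 0.409), Fdps (0.16, adjusted p = 0.313), Ebp (0.18, adjusted p = 0.372) and Insig1 (0.06, adjusted p = 0.759) were not called. The lipogenic median at 24 h was then -0.02. At 6 h the block ended the falls of Ebp (adjusted p = 0.0691), Msmo1 (adjusted p = 0.067), Nsdhl (adjusted p = 0.0528) and Tm7sf2 (adjusted p = 0.074). On slide 1 alone, which holds every control and 2 h array, 7 members fell at 2 h, where 545 of 14376 genes were called lower. Hmgcs1 (adjusted p = 0.0674) and Mvd (adjusted p = 0.0568) were not called there.

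**Figure D5:**
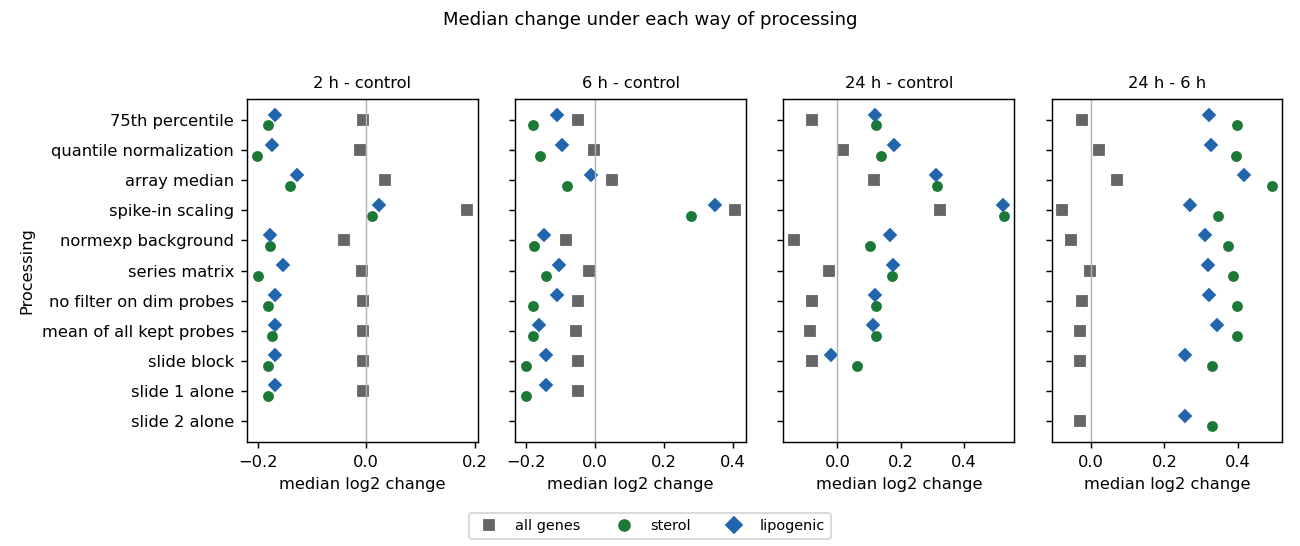
Median log2 change of all genes (squares), sterol genes (circles) and lipogenic genes (diamonds) under each way of processing, by comparison. Spike-in scaling moves the median of all genes to 0.19, 0.41 and 0.32 at 2, 6 and 24 h, and in the 24 h against 6 h panel both gene groups lie right of all genes under every processing shown.

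The early falls are relative to the rest of the transcriptome. When arrays were scaled by 7 spike-in probes instead of the 75th percentile, the median of all genes became 0.19 at 2 h, 0.41 at 6 h and 0.32 at 24 h. On that scale 0 members fell at 2 h or 6 h, and the sterol medians were 0.01 and 0.28, below those of all genes. At 24 h 18 members rose with a sterol median of 0.53, and Idi1 was 0.94 above control. Abca1 fell at 24 h on that scale too (-0.48, adjusted p = 0.0458). For 24 h against 6 h the sterol median was 0.34 beside -0.08 for all genes, and 2 members, Idi1 and Scd1, were called higher (adjusted p = 0.0412 and 0.0156).

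The balance of calls over all genes also moved with the scaling. At 24 h it was 2324 genes higher and 4564 lower with the 75th percentile, 3338 and 2929 with quantile normalization, 5579 and 2202 with array medians, and 4106 and 595 with spike-ins. At 6 h it was 728 higher and 1680 lower with the 75th percentile, 1064 and 1040 with quantile normalization, 2074 and 742 with array medians, and 4891 and 47 with spike-ins. Members at 24 h were 13 higher and 1 lower with the 75th percentile, 14 and 1 with quantile normalization and 25 and 1 with array medians. For 24 h against 6 h the genes called higher and lower were 1376 and 2225 with the 75th percentile, 1850 and 1597 with quantile normalization, 3171 and 1369 with array medians, and 138 and 865 with spike-ins. Without 6 h replicate 1 or 2, 879 and 869 genes were called higher with the 75th percentile. The members called higher in that comparison were 24, 24, 26 and 2 for the 4 scalings in the order above.

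Single arrays decided some calls. At 2 h the count of fallers was 5 without control replicate 1. Stard4 was not called at 2 h without control replicate 2 (adjusted p = 0.0551), nor Lss without control replicate 1 or 3 (adjusted p = 0.0518 and 0.062). The 2 h calls of Hmgcs1, Mvd and Scd1 ended without any of 5, 5 and 4 arrays, with adjusted p up to 0.0963, 0.0841 and 0.0732. Control replicates 1 and 2 and 2 h replicate 2 were among them for all 3 genes, with 2 h replicate 1 for Hmgcs1 and Scd1, 6 h replicate 2 for Hmgcs1, and control replicate 3 and 2 h replicate 3 for Mvd.

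At 6 h the count of fallers was 7 without control replicate 3, and also without 6 h replicate 1. Mvd was not called at 6 h without either array (adjusted p = 0.0513 and 0.0627). Calls of Ebp, Insig1, Msmo1, Nsdhl and Tm7sf2 at 6 h ended without 1 of 5 to 8 arrays, and for all 5 genes control replicates 1 and 3 and 6 h replicate 1 were among them. Control replicate 2 was among them for all but Nsdhl, 6 h replicate 2 for all but Tm7sf2, 6 h replicate 3 for all but Insig1, and 24 h replicates 1 and 3 for Msmo1. The highest adjusted p was 0.0827 for Ebp, 0.101 for Insig1, 0.119 for Msmo1, 0.0984 for Nsdhl and 0.0882 for Tm7sf2. At 24 h Acly was not called without control replicate 3 (adjusted p = 0.054) or Fdps without control replicate 2 (adjusted p = 0.0511), and the rises of Ebp and Insig1 ended without any 1 of 9 and 5 arrays (adjusted p up to 0.115 and 0.117). For Ebp the exceptions were 2 h replicates 1 and 2 and 24 h replicate 2, and for Insig1 the 5 were control replicates 2 and 3, 6 h replicate 1 and 24 h replicates 1 and 2. For 24 h against 6 h, Fdft1 and Tm7sf2 lost their calls without any 1 of 7 and 4 arrays (adjusted p up to 0.118 and 0.0687), and the other 14 sterol synthesis enzymes kept theirs. The arrays were control replicate 3 and all 6 h and 24 h arrays for Fdft1, and 6 h replicates 1 and 3 and 24 h replicates 1 and 2 for Tm7sf2.

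From a list of transport, esterification, oxysterol and processing genes, 22 other sterol genes were tested. At 2 h 0 rose and 1 fell (all genes 3.1% higher and 6.1% lower), and at 6 h 1 rose and 4 fell (all genes 5.06% and 11.7%). At 24 h 3 rose and 8 fell. At 24 h these counts are near the shares over all genes, 16.2% higher and 31.7% lower. Ch25h, which makes 25-hydroxycholesterol, fell at 24 h by 0.93 ± 0.20 (adjusted p = 0.00296) and Acat1, the mitochondrial thiolase, by 0.59 ± 0.06 (adjusted p = 1.77e-05). Cyp27a1, the sterol 27-hydroxylase, fell at 6 h by 0.51 ± 0.08 (adjusted p = 0.00354), and Mylip, a ubiquitin ligase induced by liver X receptors, fell at 24 h by 0.47 ± 0.08 (adjusted p = 0.00065). With slide as a block the 24 h change of Ch25h was -1.11 (adjusted p = 0.0724). For 24 h against 6 h, 2 were higher and 4 lower, near the shares over all genes, 9.57% higher and 15.5% lower.

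Of 20 other lipogenic genes tested, 0 rose and 3 fell at 2 h (all genes 3.1% higher and 6.1% lower), 1 rose and 8 fell at 6 h (all genes 5.06% and 11.7%), and 3 rose and 7 fell at 24 h. At 24 h these counts are near the shares over all genes, 16.2% higher and 31.7% lower. Fads1, the delta-5 desaturase, fell at 6 h by 0.68 ± 0.07 (adjusted p = 0.00076), and Acss2, which activates acetate, by 0.65 ± 0.06 (adjusted p = 0.000413). Acacb, the carboxylase that regulates fatty acid oxidation, fell at 6 h by 0.52 ± 0.09 (adjusted p = 0.00425), and Gpam, the first acyltransferase of triglyceride synthesis, fell at 24 h by 0.57 ± 0.13 (adjusted p = 0.00556). With slide as a block the change of Gpam was -0.51 (adjusted p = 0.206). For 24 h against 6 h, 9 were higher and 1, Gpam, lower (all genes 9.57% and 15.5%). On the spike-in scale, Ch25h was the only one of these 8 genes from the other lists whose change was still called, with Acat1 at -0.19, Mylip at -0.07, Gpam at -0.16, Cyp27a1 at -0.05, Fads1 at -0.22, Acss2 at -0.19 and Acacb at -0.06.

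Markers of other cells changed along with the 24 h group, where 31.7% of all genes were called lower and 16.2% higher. The summed level of 9 fibroblast markers was 170 to 182 in controls and 123 to 142 at 24 h, with 7 of 9 lower. The 7 endothelial markers summed to 3.12 to 3.33 and 2.29 to 2.62, with 5 of 7 lower and Egfl7 higher (0.45, adjusted p = 5.35e-05). The 6 smooth muscle and pericyte markers summed to 24.3 to 26.4 and 18.8 to 20.8, with 5 of 6 lower and Cnn1 higher (0.60, adjusted p = 0.000297). The 8 cardiomyocyte markers summed to 514 to 531 in controls and 458 to 486 at 24 h, with 5 lower and 2 higher. Of 6 adipocyte markers, Adipoq, Plin1 and Lep were above background on no array, and the 2 tested, Cfd and Fabp4, fell at 24 h, with log2 changes of -2.43 and -1.70. The 5 measured genes of dividing cells summed to 7.2 to 7.77 in controls and 6.21 to 6.65 at 2 h. Their sum was 6.68 to 7.31 at 6 h and 7.16 to 7.56 at 24 h. At 2 h 3 of the 5 fell, where 6.1% of all genes were called lower. The part of cell make-up and of dividing cells in the sterol and lipogenic values was not tested.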

How the data were processed

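RNA of 12 rat cardiomyocyte cultures was labelled with Cy3 and read on 1-colour Agilent arrays. Each array's spot intensity, as deposited by the authors, is the processed signal of Agilent Feature Extraction, after background subtraction and spatial detrending per the file headers. The headers name version 11.0.1.1 and the submitters' processing notes version 10.7.3.1. The deposited flags (well above background, outlier, saturated), coded 0 or 1, were used as the authors' scanner software set them. The authors' series matrix, deposited as processed intensities, was taken to log2 and served only as an alternative.

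Control spots and outlier flags were left out, spots of a probe were averaged, and log2 intensity minus the array's 75th percentile was taken. Of 30367 probes, 18997 were well above background on every array of a group; 14376 named genes remained, each read by its brightest probe. Names came from RefSeq tables by accession or symbol, otherwise from the files. limma 3.58.1 in R 4.3.3 fitted all 12 arrays with a mean per group (lmFit, eBayes), two-sided, with Benjamini-Hochberg adjustment over all genes and calls at 0.05. The fitting was tested on simulated data.

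Members and lists were chosen with earlier results of these data known. Every member is named; the 12 called members with the largest change against control have every array given, and up to 4 called genes of each other list are named. The alternatives were normexp background, quantile, array median or spike-in scaling, the series matrix, no filter on dim probes, the mean of all probes, slide or replicate number as a block, each slide alone, only the groups compared, and each array left out.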

Additional observations from a re-analysis of the deposited data

Results flagged for a closer look

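Changes of opposite direction at different stretch times, each called against the same controls and with the difference between times also called by limma, were found for 5 members. Because members were picked for called changes of opposite sign, the call of the difference was nearly fixed in advance. It is no separate evidence. Between 2 h and 24 h, Hmgcs1 went from -0.21 to 0.28, a difference of 0.49 (adjusted p = 4.79e-05). Msmo1 went from -0.22 to 0.36, a difference of 0.59 (adjusted p = 5.92e-06), and Stard4 from -0.23 to 0.37, a difference of 0.60 (adjusted p = 5.57e-06). Between 6 h and 24 h, Ebp went from -0.25 to 0.19, a difference of 0.44 (adjusted p = 0.000986). Insig1 went from -0.23 to 0.18, a difference of 0.41 (adjusted p = 0.00115), and Msmo1 from -0.16 to 0.36, a difference of 0.52 (adjusted p = 3.08e-05). All values are log2 changes with 3 arrays per group. With slide as a block the 24 h calls of Hmgcs1 (adjusted p = 0.185), Ebp (adjusted p = 0.372) and Insig1 (adjusted p = 0.759) and the 6 h calls of Ebp (adjusted p = 0.0691) and Msmo1 (adjusted p = 0.067) ended. Calls of Ebp and Insig1 at both times also ended without single arrays, as did the 2 h calls of Hmgcs1 and Stard4 and the 6 h call of Msmo1. On the spike-in scale the 6 h changes were 0.20 for Ebp, 0.23 for Insig1 and 0.30 for Msmo1. The opposite calls of Msmo1 and Stard4 at 2 h and 24 h held with slide as a block, but their 2 h falls were not called on the spike-in scale (adjusted p = 0.93 and 0.918). Nor were these falls called with only the groups compared (adjusted p = 0.0837 and 0.0791).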

How the results depend on the processing

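The 24 h calls of Idi1, Sqle, Stard4, Msmo1 and Abca1 against control held under every alternative run. Spike-in scaling turned early directions. At 2 h the sterol median was 0.0106 and the lipogenic median 0.0235, and at 6 h they were 0.28 and 0.35. Some genes called lower at 6 h without spike-in scaling had positive changes with it, none of them called. These were Ebp 0.20, Insig1 0.23, Lss 0.13, Msmo1 0.30, Mvd 0.16, Mvk 0.20, Nsdhl 0.25, Pmvk 0.15, Scd2 0.0488, Srebf1 0.0345 and Tm7sf2 0.0472. It called 184 genes at 2 h, 4938 at 6 h, 354 for 6 h against 2 h, 1003 for 24 h against 6 h, 2176 for 24 h against 2 h and 4990 in the F test. Among members it gave 0 lower at 2 h, 0 lower and 2 higher at 6 h, 0 in either direction for 6 h against 2 h, 2 higher for 24 h against 6 h and 0 lower for 24 h against 2 h.

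The slide block turned the lipogenic 24 h median to -0.0203. It called 1600 genes at 6 h, 2045 at 24 h, 599 for 6 h against 2 h, 1101 for 24 h against 6 h, 1805 for 24 h against 2 h and 2798 in the F test. Members called higher were then 4 at 24 h, 13 for 24 h against 6 h and 7 for 24 h against 2 h, with 1 lower and 0 higher for 6 h against 2 h. Slide 1 alone called 813 genes at 2 h, 1350 at 6 h and 238 for 6 h against 2 h, with 8 members lower at 6 h, and 1 lower and 0 higher for 6 h against 2 h. Slide 2 alone, chosen after seeing the data, called 240 genes for 24 h against 6 h and 0 members higher, with a 6 h arm of 1 array whose spread is assumed to be that of the 24 h arrays.

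Array median scaling gave 7 members lower at 6 h, 25 higher at 24 h, and 0 lower and 2 higher for 6 h against 2 h. Without the filter on dim probes, 644, 1385 and 442 genes were called at 2 h, at 6 h and for 6 h against 2 h, with 8 members lower at 6 h and 0 called for 6 h against 2 h. Normexp gave 620 genes for 6 h against 2 h, 2 members lower at 24 h and 0 called for 6 h against 2 h. With only the groups compared, 463 genes were called at 2 h and 362 for 6 h against 2 h, with 3 members lower at 2 h and 0 called for 6 h against 2 h. The 2 h falls then lost were those of Abca1 (adjusted p = 0.0667), Lss (0.0668), Stard4 (0.0791), Msmo1 (0.0837), Mvd (0.0925) and Hmgcs1 (0.112). Quantile normalization and the series matrix each gave 14 members lower at 2 h, and 0 lower and 2 higher for 6 h against 2 h. The mean of all probes gave 0 higher for 6 h against 2 h. Hmgcs1 and Mvd at 2 h, and Ebp, Insig1, Msmo1, Nsdhl and Tm7sf2 at 6 h, lost their calls under array median scaling and without the filter on dim probes. Array median scaling also ended the calls of Msmo1 at 2 h (adjusted p = 0.054) and Mvd at 6 h (adjusted p = 0.0783). Without the filter Scd1 at 2 h was not called (adjusted p = 0.0584).

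Leaving out 1 array gave 665 to 1365 genes and 5 to 9 members lower at 2 h, 1195 to 2536 genes and 7 to 15 members lower at 6 h, and 345 to 1577 genes with 0 to 2 members lower and 0 to 1 higher for 6 h against 2 h. Cultures shared only a replicate number: over 18 pairs of same-numbered arrays the correlation of deviations ran from -0.11 to 0.10, and 3 of 12 arrays correlated best with their own number. With a replicate block, members lower and higher were 8 and 0 at 2 h, 10 and 0 at 6 h, 1 and 12 at 24 h, and 1 and 0 for 6 h against 2 h. No member was limited by background, since all probes were well above it.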
